A study of Homo sapiens with 4 samples.

Results

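Isolated long intergenic non-coding RNA (lincRNA) genes had a slightly higher median level of nascent RNA in hypertonic than in isotonic U2OS cells, while no single one passed the test. The median change was positive among the faintest of them, also when at least 10 reads were required in each group, and negative among the most transcribed. Protein-coding genes as isolated as these showed the same fall with level. The lincRNA set comprised 1130 of the 57428 genes measured on their own strand, out of 7340 lincRNA genes. A member overlapped no other of these measured genes on its strand and averaged at least 10 reads over the 4 libraries. It also had no active gene ending within 50 kb before its start on that strand. A gene counted as active at a mean isotonic level of 0.5 RPKM, a read count scaled by gene length and library size. The choice thus used isotonic levels of neighbouring genes and the average count of each member over all libraries.

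Most lincRNAs are transcribed by RNA polymerase II, capped and often spliced, and many are short-lived or stay in the nucleus. Their level is far below that of mRNAs, so nascent RNA shows transcription of genes that leave little stable RNA. A lincRNA close behind an active gene can also collect reads from polymerases that have passed that gene's polyadenylation site. The distance limit sets such genes apart from those that lie in quiet surroundings.

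Bru-seq isolates RNA that took up bromouridine, a uridine analogue, while cells were labelled. All cells were U2OS, a human osteosarcoma line, carrying stably overexpressed GFP-DCP1a, a fusion of a cofactor of mRNA decapping that collects in P-bodies, so both groups share that transgene. The hypertonic group had 2 libraries from medium with 300 mM sodium, reached with concentrated saline, and the isotonic group had 2 libraries from medium with 150 mM sodium, which received ordinary saline. Labelling with 2 mM bromouridine lasted 30 min, with no chase. The length of the exposure and the origin of the replicates are not given in the sources used here, so p-values reflect how these libraries vary, and that variation may be technical only. Libraries held 28367788 and 23048409 counts in hypertonic replicates 1 and 2, and 44888307 and 23410787 counts in isotonic replicates 1 and 2. Among mesenchymal markers VIM measured 13.8 to 31.3 RPKM and COL1A1 1.67 to 5.82 RPKM, whereas TWIST1 was listed at 0 and COL1A2 reached at most 0.00202 RPKM. The epithelial marker EPCAM reached 0.212 RPKM and the leukocyte gene CD3E was listed at 0. Over 1523 expressed protein-coding genes with nothing annotated opposite, the sense strand held 96.9% and 98.5% of the reads in the hypertonic libraries and 99.3% in each isotonic library.

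The promoters of 4 members are shown because 2 of them belong to the members with the smallest p and 2 to the most transcribed, and because their RefSeq start lies within 100 bases of the start in the tables. GAPLINC and LINC00334 were among the 8 members with the smallest p among those higher in hypertonic cells, and NORAD and LINC01186 were among the 8 most transcribed. Each sequence is RefSeq GRCh38.p14, 250 bases before to 50 after the start, 5′ to 3′ on the strand of the gene, with matches to 5 searched motifs in capitals: TATAAA (the core of the TATA box), CCAAT (the CCAAT box), GGGCGG (the core of the GC box), CACGTG (an E box) and TGACTCA (the AP-1 site), each on either strand and with no overlap among the matches shown. GAPLINC lies at chr18:3466000-3466299 (plus strand), LINC00334 at chr21:45234090-45234389 (plus), NORAD at chr20:36050911-36051210 (minus) and LINC01186 at chrX:46327625-46327924 (minus).
GAPLINC: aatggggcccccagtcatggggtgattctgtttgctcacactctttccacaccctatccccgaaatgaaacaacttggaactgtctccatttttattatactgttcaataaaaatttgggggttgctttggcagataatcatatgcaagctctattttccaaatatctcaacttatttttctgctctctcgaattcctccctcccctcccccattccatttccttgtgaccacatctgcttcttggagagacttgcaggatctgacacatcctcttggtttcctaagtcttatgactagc
LINC00334: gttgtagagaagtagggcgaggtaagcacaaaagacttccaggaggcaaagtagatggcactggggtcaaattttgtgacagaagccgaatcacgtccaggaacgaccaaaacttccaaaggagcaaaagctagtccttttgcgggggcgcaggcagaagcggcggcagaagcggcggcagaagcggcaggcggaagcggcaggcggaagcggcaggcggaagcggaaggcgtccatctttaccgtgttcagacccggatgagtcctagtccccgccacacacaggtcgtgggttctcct
NORAD: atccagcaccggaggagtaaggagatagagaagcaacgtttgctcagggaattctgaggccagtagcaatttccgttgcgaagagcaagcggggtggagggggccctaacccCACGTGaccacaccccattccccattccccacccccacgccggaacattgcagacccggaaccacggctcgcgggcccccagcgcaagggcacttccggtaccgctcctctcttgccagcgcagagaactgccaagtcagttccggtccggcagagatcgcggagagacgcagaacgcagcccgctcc
LINC01186: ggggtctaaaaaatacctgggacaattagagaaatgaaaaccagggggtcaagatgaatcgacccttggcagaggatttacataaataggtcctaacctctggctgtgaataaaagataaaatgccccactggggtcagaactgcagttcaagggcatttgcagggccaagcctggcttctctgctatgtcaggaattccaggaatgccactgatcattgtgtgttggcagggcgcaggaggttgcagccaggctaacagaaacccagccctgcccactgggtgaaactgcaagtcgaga

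The NORAD promoter held 23 CpG dinucleotides and 1 match, CACGTG, which occurred in 7.26% of all 35116 promoters of that length. None of the 5 motifs lay in the windows of the other 3, which held 22 CpGs for LINC00334, 3 for LINC01186 and 2 for GAPLINC. Of the 1130 members, 284 had a promoter in the RefSeq table, and these held a median of 7 CpGs, against 14 over all promoters. The GC box core GGGCGG occurred in 33.5% of the matched members and in 45.0% of all promoters. The AP-1 site TGACTCA occurred in 8.80% of the matched members and in 4.95% of all promoters. Matched members under 0.05 RPKM had a median of 4 CpGs (n = 100), and those of at least 1 RPKM had a median of 9 (n = 19). Members with both hypertonic libraries above both isotonic ones had a median of 6 (n = 81), and those with both below had 6.5 (n = 24).

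The members were long and faint. Their median length was 16693 bases, and their median level over the 4 libraries was 0.115 RPKM, with quartiles of 0.0323 and 0.335 RPKM. For comparison, the median was 0.466 RPKM over the 471 lincRNA genes that met the other criteria but followed an active gene within 50 kb, and 0.581 RPKM over 6965 protein-coding genes as isolated as the members. Only 86 members reached 1 RPKM, and 373 lay under 0.05. They were spread over 23 chromosomes, 563 on the plus and 567 on the minus strand. For 554 the nearest active gene upstream was over 500 kb away or there was none on the chromosome. MALAT1 and NEAT1 together held 23.9% of all reads on the members. The members as a whole took 1.41% and 1.58% of sense reads in the hypertonic libraries and 1.18% and 1.24% in the isotonic libraries. Without MALAT1 and NEAT1 these shares were 1.15% and 1.00% in hypertonic cells and 0.968% and 0.904% in isotonic cells, so the groups did not overlap with or without this pair. Such shares are relative to the library, and a change in total RNA per cell cannot be told apart from them.

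The expression filter of edgeR kept 1031 members among 21238 genes tested. The median log2 fold change of these members was 0.43, hypertonic over isotonic, against 0.04 over all tested genes; 727 of the 1031 were positive. The median difference was 0.36 and 0.44 for hypertonic replicate 1 against isotonic replicates 1 and 2, and 0.31 and 0.43 for hypertonic replicate 2 against the same libraries, on the log2(CPM + 0.1) scale. All 4 library pairs were thus positive, while hypertonic replicate 1 minus 2 was -0.03 and isotonic replicate 2 minus 1 was -0.13 at the median. The small gap between the hypertonic replicates joined opposite gaps at low and high levels, given below. Both hypertonic libraries lay above both isotonic ones in 323 members (31.3%), against 22.5% of all tested genes, and below both in 84 members (8.15%), against 17.5% of all tested genes. The count floor touches these numbers, because 161 of the 1130 members averaged under 10 reads in isotonic cells and 40 did so in hypertonic cells. Among the 912 tested members with at least 10 reads in each group the median was 0.36, and 26.3% had both hypertonic libraries above.

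**Figure D1:**
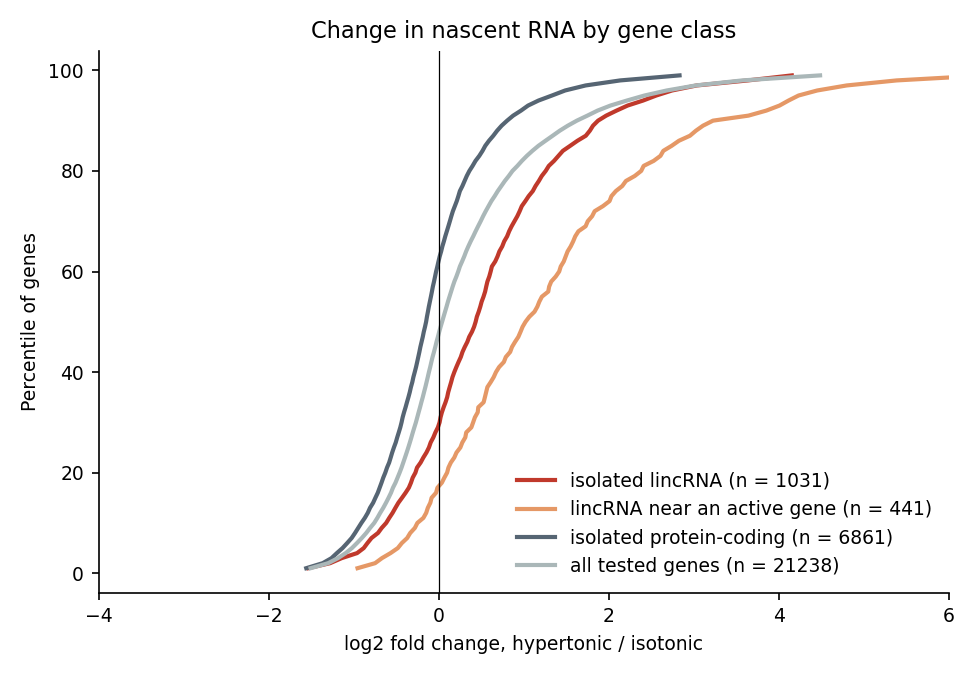
Cumulative percentiles of the log2 fold change, hypertonic over isotonic, for 4 sets of tested genes. The curve of isolated lincRNA genes crosses the 50th percentile at 0.43, between isolated protein-coding genes at -0.15 and lincRNA genes near an active gene at 1.02.

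No single member passed the threshold. With edgeR's quasi-likelihood test and Benjamini-Hochberg adjustment over all 21238 genes, 0 members had an adjusted p under 0.05, as had 0 genes in the whole table (0%), with an adjusted p of 0.192 at best. Without adjustment, 105 members were higher at p under 0.05 (10.2%, against 8.89% of all tested genes) and 10 were lower (0.970%, against 2.01%). DESeq2 called 37 members higher (3.59%, against 3.32% of all tested genes) and 0 lower (against 0.118%), and limma-voom called 0. The share of members called by DESeq2 was therefore close to that of all genes. Without the expression filter, edgeR called 39 of the 1130 members higher (3.45%, against 2.33% of all genes tested then) and 0 lower (against 0.126%). With hypertonic replicate 2 left out, edgeR called 116 members higher and 37 lower, against 11.1% and 10.3% of all genes tested then.

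The 8 members with the smallest p among those higher had 0 to 71 reads over both isotonic libraries. All but GAPLINC and AC044839.4 averaged under 10 reads there, so they reached the count floor through the hypertonic group. Their low isotonic level is thus partly a result of the choice. GAPLINC, named for its association with gastric adenocarcinoma, measured 16.5 and 9.47 CPM (reads scaled by effective library size) in hypertonic cells, against 1.20 and 1.14 CPM in isotonic cells. Its log2 fold change was 3.47 ± 0.69 (SE, n = 2 libraries each; adjusted p = 0.192, edgeR), and the groups were far apart relative to their spread. AC044839.4 measured 11.1 and 5.97 CPM in hypertonic cells and 0.343 and 0.722 CPM in isotonic cells, a log2 fold change of 4.03 ± 0.82. LINC01764 measured 2.70 and 5.78 CPM in hypertonic cells and 0.123 and 0.464 CPM in isotonic cells, a log2 fold change of 3.93 ± 0.96. In each of these genes the lower hypertonic library exceeded the higher isotonic one several-fold. LINC00334 measured 3.80 and 1.14 CPM in hypertonic cells and 0.147 and 0.0516 CPM in isotonic cells, a log2 fold change of 4.45 ± 1.03. This rested on 90 and 29 hypertonic reads, against 6 and 1 isotonic reads. It overlaps an active gene on the opposite strand, where 351 and 171 reads lay in hypertonic and 94 and 90 in isotonic cells. The sense share of reads also differed between the groups, and its part in this value was not tested.

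The other 4 rested on very few isotonic reads, so a ratio with its exact 95% counting interval stands in for a fitted fold change. AC110285.1 had 96 and 69 reads in the hypertonic libraries, against 2 and 0 in the isotonic ones, a ratio of 101 (27.5 to 841). AL391056.1 had 55 and 37 reads in the hypertonic libraries, against 2 and 0 in the isotonic ones, a ratio of 56.3 (15.2 to 472). LINC01818 had 35 and 16 reads over 129658 bases in the hypertonic libraries, against 1 in each isotonic library, a ratio of 31.2 (8.21 to 265). AC092683.1 had 40 and 16 reads in the hypertonic libraries and 0 in both isotonic ones, which makes it at least 22.9-fold higher when the isotonic group is set at 3 reads. The intervals and the bound cover counting error only. These 8 genes were among the 29 members called higher both by DESeq2 and by edgeR without the expression filter (2.81%, against 2.67% of all tested genes). They were picked by the smallest p on the same counts, so these calls are not separate support.

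**Figure D2:**
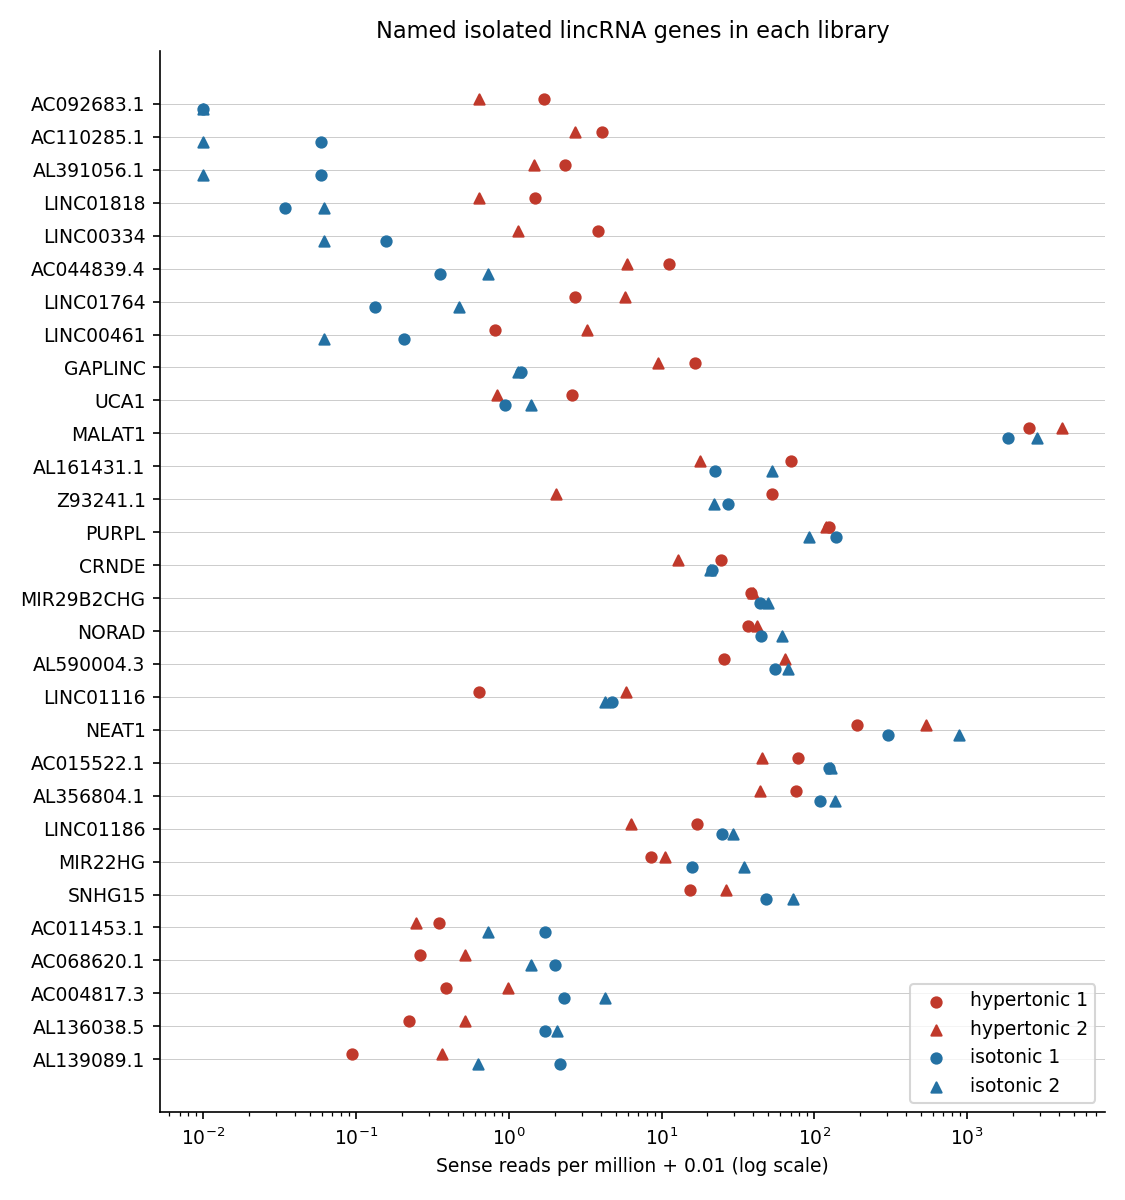
Sense CPM plus 0.01, on a log axis, in each hypertonic (red) and isotonic (blue) library for the 30 named isolated lincRNA genes, ordered by log2 fold change from the highest at the top. GAPLINC at 16.5 and 9.47 CPM in hypertonic cells, against 1.20 and 1.14 CPM in isotonic cells, and SNHG15 at 15.2 and 26.5 CPM in hypertonic cells, against 48.0 and 72.9 CPM in isotonic cells, show both directions.

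Several of these genes lay just behind a gene that was transcribed below the 0.5 RPKM limit. AC044839.4 (chromosome 11, 45813219 to 45825258, plus strand) starts 0.204 kb after SLC35C1, which measured 0.562 RPKM in hypertonic and 0.445 RPKM in isotonic cells. AC110285.1 (chromosome 17, 81376001 to 81385360, minus strand) starts 2.66 kb after AC110285.2, at 0.690 RPKM in hypertonic and 0.416 RPKM in isotonic cells. GAPLINC (chromosome 18, 3466250 to 3478978, plus strand) starts 6.27 kb after TGIF1, at 0.889 RPKM in hypertonic and 0.375 RPKM in isotonic cells. LINC00334 (chromosome 21, 45234340 to 45264548, plus strand) starts 7.78 kb after ADARB1, at 0.411 RPKM in hypertonic and 0.432 RPKM in isotonic cells. LINC01818, LINC01764, AL391056.1 and AC092683.1 had no such gene of 0.1 to 0.5 RPKM within 50 kb.

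A split of the members by such weakly active neighbours was chosen after these genes were seen. The 69 tested members that start within 10 kb after a gene of 0.1 to 0.5 RPKM had a median of 0.78 on the log2 scale, and 43.5% had both hypertonic libraries above. The 79 members with such a gene 10 to 50 kb upstream had a median of 0.63, with 38.0% above. The 883 members with none within 50 kb had a median of 0.39, with 29.8% above. Of the 105 members higher at an unadjusted p under 0.05, 35 had a weakly active neighbour within 50 kb, against 148 of all 1031. The most secluded members had neither a weakly active gene within 50 kb nor an active one within 100 kb upstream, and no active gene opposite or in divergent orientation. These 626 had a median of 0.30 and 26.7% above, against 0.04 and 22.5% over all tested genes. The part of transcription continuing from upstream genes in these values was not tested.

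The members were also ordered by distance to an active gene, beside the near lincRNA genes. The median log2 fold change was 0.85 for 221 lincRNA genes within 10 kb and 1.19 for 220 at 10 to 50 kb, both outside the isolated set. It was 0.63 for 126 members at 50 to 100 kb, 0.50 for 154 at 100 to 200 kb and 0.39 for 751 beyond 200 kb or with no active gene upstream. Beyond 500 kb it was 0.43 (n = 503), so no further decline was seen past 200 kb. Taken as a whole, the isolated genes had a median of 0.43 with 31.3% above, against 1.02 with 51.2% above for the 441 tested near lincRNA genes, a difference of medians of -0.59. That difference rested on the hypertonic libraries unequally, being -0.20 without hypertonic replicate 1 and -0.87 without hypertonic replicate 2. At the edge of the distance limit, AL596094.1 at 50.2 kb and AC126696.3 at 50.6 kb were inside with log2 fold changes of -0.66 and -0.61, while LINC01031 at 49.9 kb and FRMD6-AS2 at 49.6 kb were outside with 1.49 and 0.54. At the count floor, LINC01980 and AC087857.1 were inside with means of 10.0 reads each, and FAM27E5 and AC093283.1 were outside with 9.87 each.

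**Figure D3:**
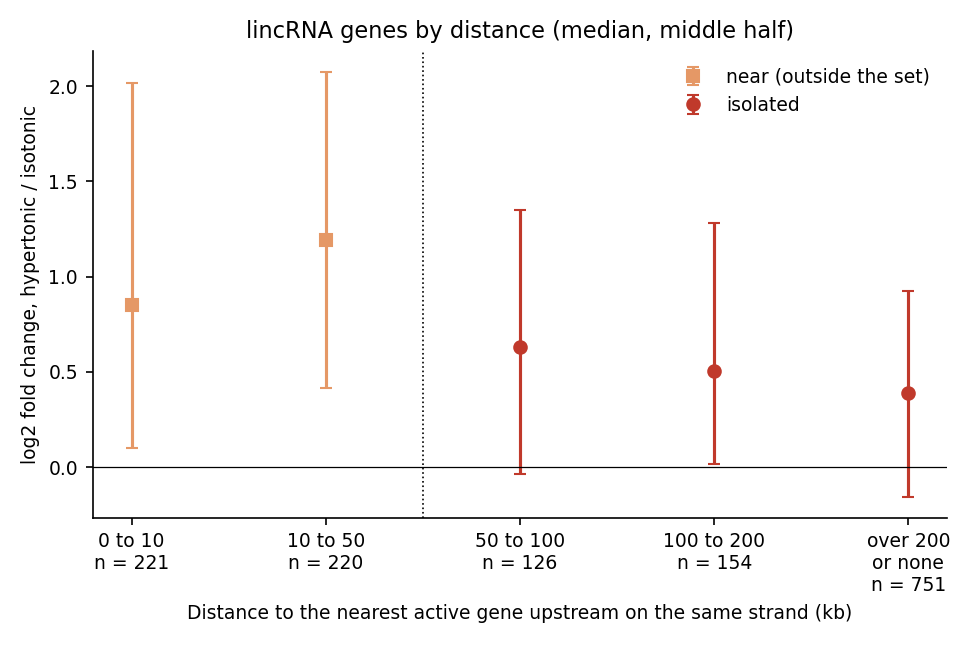
Median log2 fold change, hypertonic over isotonic, of lincRNA genes by the distance in kb to the nearest active same-strand gene upstream, with bars from the lower to the upper quartile of genes. The dotted line marks the 50 kb limit: medians are 0.85 and 1.19 before it and 0.63, 0.50 and 0.39 beyond it.

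The direction depended on the level of transcription. Members under 0.05 RPKM over the 4 libraries had a median change of 0.71 on the log2 scale (n = 320), and 44.4% had both hypertonic libraries above, against 35.2% of isolated protein-coding genes at that level. The median was 0.56 at 0.05 to 0.2 RPKM (n = 310), 0.35 at 0.2 to 0.5 RPKM (n = 222) and 0.01 at 0.5 to 1 RPKM (n = 93). At 1 RPKM or more it was -0.32 (n = 86), and 27.9% had both hypertonic libraries below and 8.14% above. Of isolated protein-coding genes at that level 46.9% were below and 2.17% above, and of all tested genes 17.5% and 22.5%. Among members, hypertonic replicate 1 minus 2 was 0.49, -0.18, -0.26, -0.68 and -0.58 at the median, from the lowest to the highest bin. At 0.5 RPKM or more this gap exceeded the median change in size. The library pairs still gave 0.44 to 0.88 in the lowest bin and -0.71 to -0.16 in the highest. The faint bins hold members that reached the count floor through the hypertonic group alone, such as 50 of the 320 under 0.05 RPKM, all 50 of them positive. With at least 10 reads in each group, an alternative chosen after seeing the data, the medians were 0.57 (n = 262), 0.46 (n = 270), 0.34 (n = 209), 0.02 (n = 89) and -0.30 (n = 82) from the lowest to the highest bin. Under the same floor isolated protein-coding genes had 0.35, 0.17, -0.03, -0.22 and -0.47. In the lowest bin 36.6% of members and 28.8% of isolated protein-coding genes then had both hypertonic libraries above. Without that floor isolated protein-coding genes had 0.46, 0.20, -0.03, -0.22 and -0.47 from the lowest to the highest bin. In every bin the lincRNA median was the higher with or without the floor, by 0.15 to 0.38 without it. Over all 6861 tested isolated protein-coding genes the median was -0.15, and 11.5% had both hypertonic libraries above. The sign of the values near 0 depends on scaling, since scaling by total count moved the median of all genes by 0.22 and that of isolated protein-coding genes to 0.075.

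**Figure D4:**
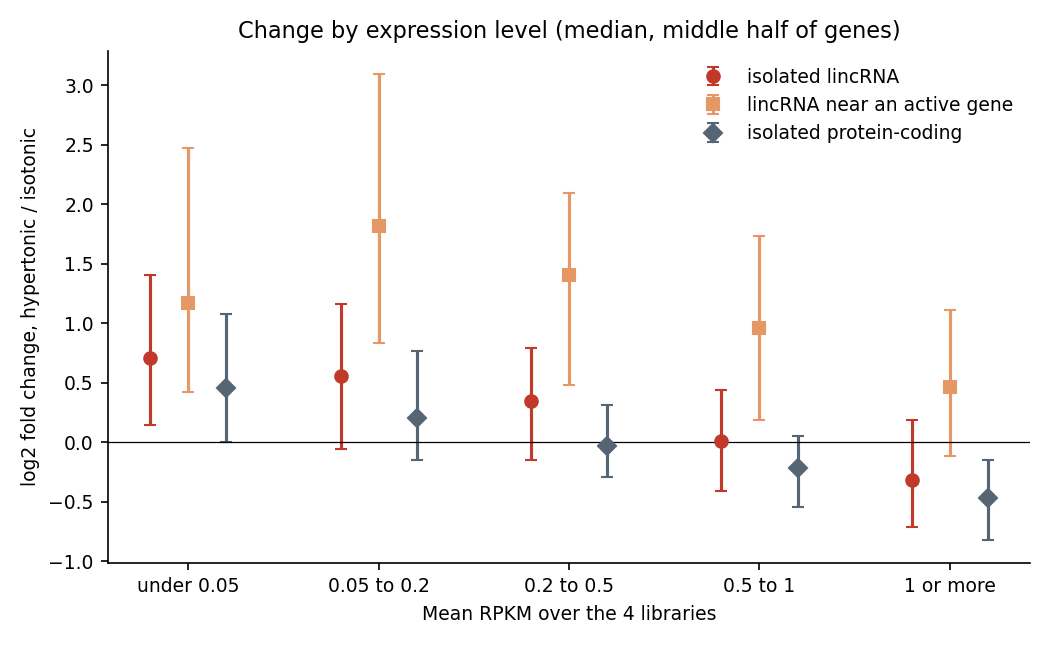
Median log2 fold change, hypertonic over isotonic, by mean RPKM over the 4 libraries for isolated lincRNA genes, lincRNA genes near an active gene and isolated protein-coding genes, with bars from the lower to the upper quartile. Isolated lincRNA genes pass from 0.71 in the lowest bin to -0.32 in the highest, above isolated protein-coding genes in each bin.

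The 8 members with the highest level included the best known ones. MALAT1, an abundant nuclear RNA of splicing speckles, measured 2525 and 4172 CPM in hypertonic cells and 1859 and 2888 CPM in isotonic cells (log2 fold change 0.50 ± 0.50). NEAT1, the scaffold of paraspeckles, measured 190.5 and 537 CPM in hypertonic cells and 306 and 883 CPM in isotonic cells (log2 fold change -0.71 ± 0.63). Both overlapped between the groups, and in NEAT1 the replicates of either group lay further apart than the group means. NORAD, which binds PUMILIO proteins, measured 36.7 and 42.4 CPM in hypertonic cells and 45.0 and 61.5 CPM in isotonic cells, a log2 fold change of -0.43 ± 0.44. LINC01186 measured 17.0 and 6.33 CPM in hypertonic cells and 24.8 and 29.3 CPM in isotonic cells, a log2 fold change of -1.21 ± 0.61. Without hypertonic replicate 1 the value of LINC01186 was -2.13, and without hypertonic replicate 2 it was -0.67. In NORAD and LINC01186 both hypertonic libraries were below both isotonic ones, by a small margin in NORAD. AL161431.1 spanned 70.8 and 18.0 CPM in hypertonic cells and 22.5 and 53.2 CPM in isotonic cells, and AL590004.3 spanned 25.6 and 64.2 CPM in hypertonic cells and 55.5 and 67.7 CPM in isotonic cells. Z93241.1, a gene of 514 bases with a divergent active neighbour, had 52.5 and 2.04 CPM in hypertonic cells and 27.2 and 22.0 CPM in isotonic cells, so its hypertonic libraries stood on either side of the isotonic ones.

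SNHG15, a host gene of a small nucleolar RNA, had the smallest p among the members that were lower. It measured 15.2 and 26.5 CPM in hypertonic cells, against 48.0 and 72.9 CPM in isotonic cells, a log2 fold change of -1.53 ± 0.50 (adjusted p = 0.309, edgeR). Each hypertonic library lay well below both isotonic ones. AC015522.1 measured 78.7 and 45.7 CPM in hypertonic cells, against 125 and 128 CPM in isotonic cells, a log2 fold change of -1.03 ± 0.42. AL356804.1 measured 76.2 and 43.9 CPM in hypertonic cells, against 108 and 137 CPM in isotonic cells, a log2 fold change of -1.03 ± 0.43. Both are well-covered genes with the groups apart. The remaining 5 of the 8, AL136038.5, AC004817.3, AC068620.1, AL139089.1 and AC011453.1, were short genes of 529 to 2239 bases with 11 to 34 reads over both hypertonic libraries and 84 to 177 reads over both isotonic ones, and their log2 fold changes were -2.65 to -2.09.

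MicroRNA host genes were the only name class with a negative median, but it held 3 tested members. MIR22HG measured 8.53 and 10.5 CPM in hypertonic cells and 15.8 and 34.7 CPM in isotonic cells, a log2 fold change of -1.41 ± 0.59 (adjusted p = 0.430, edgeR). MIR34AHG, host of a p53-induced microRNA and named here only as the remaining one of the 3, after its values were seen, measured 16.7 and 49.7 CPM in hypertonic cells and 57.6 and 51.3 CPM in isotonic cells. MIR29B2CHG measured 38.8 and 39.4 CPM in hypertonic cells and 44.4 and 49.6 CPM in isotonic cells. In each of the 3 both hypertonic libraries were below both isotonic ones, although hypertonic replicate 2 almost reached the isotonic values in MIR34AHG. The same held for 8.15% of all tested members and 17.5% of all tested genes, and 3 genes are too few for a share. The median log2 fold change was 0.44 for 316 members with LINC numbers, 0.43 for 585 named after clones and 0.47 for 127 with other names.

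Of a list of 56 well-studied lncRNAs, 10 were members, with 4 positive and 6 negative log2 fold changes and 0 past the threshold (edgeR; DESeq2 called LINC00461, adjusted p = 0.0273). LINC00461, a neural lincRNA, measured 0.802 and 3.22 CPM in hypertonic cells and 0.196 and 0.0516 CPM in isotonic cells, a log2 fold change of 3.84 ± 1.06 that rested on 101 hypertonic and 9 isotonic reads over 177391 bases. PURPL, a p53-regulated lincRNA, measured 125 and 119 CPM in hypertonic cells and 139 and 92.5 CPM in isotonic cells, and its groups overlapped. CRNDE measured 24.3 and 12.7 CPM in hypertonic cells and 21.5 and 20.6 CPM in isotonic cells, also overlapping. LINC01116 differed more within hypertonic cells, at 0.634 and 5.82 CPM, than within isotonic cells, at 4.73 and 4.23 CPM. UCA1, first described in urothelial cancer, measured 2.58 and 0.825 CPM in hypertonic cells and 0.932 and 1.39 CPM in isotonic cells. It lies on the plus strand of chromosome 19 (15828961 to 15836320) and overlaps LINC01764 on the minus strand (15827045 to 15835853), whose groups were apart as given above.

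Medians differed less by orientation and length than by level. The 69 members overlapping an active gene on the opposite strand had a median change of 0.53 (log2), against 0.42 for the other 962. The 154 members with an active gene in divergent orientation, starting within 2 kb, had a median of 0.53, against 0.42 for the other 877. Among divergent members hypertonic replicate 1 minus 2 was -0.83 at the median, which is larger in size than the difference between the groups. Members of 10 to 30 kb and of 30 to 100 kb had medians of 0.60 (n = 244) and 0.56 (n = 223). Those of 1 kb or less and of 1 to 3 kb had a median of 0.15 in each class (n = 39 and 134), and those over 100 kb had 0.30 (n = 167). Over 100 kb the hypertonic replicates differed in sign. Median differences from isotonic replicates 1 and 2 were 0.56 and 0.71 for hypertonic replicate 1, and -0.11 and -0.16 for hypertonic replicate 2. At 1 to 3 kb they were -0.41 and -0.13 for hypertonic replicate 1, and 0.31 and 0.53 for hypertonic replicate 2.

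The strand opposite the members gave a measurement that the choice of members did not use. Of 1060 members with an antisense entry, 304 passed the filter, with a median log2 fold change of 1.26, and 267 were positive. Both hypertonic libraries lay above both isotonic ones in 59.2%, against 64.4% of all 9815 antisense entries tested, whose median was 1.34, and below both in 1.32%, against 1.76%. The median differences between library pairs were 0.89 to 1.27. With edgeR's quasi-likelihood test, adjusted over all antisense entries, 57 of the 304 were called higher (18.8%, against 21.9% of all antisense entries) and 0 lower (against 0.0102%). The increase opposite the isolated lincRNA genes was thus near that opposite genes in general. These calls depended on single libraries: edgeR called 0 without isotonic replicate 1 (against 0% of all antisense entries tested then) and 3, all higher, without isotonic replicate 2 (0.714%, against 0.843%). Without hypertonic replicate 2 it called 101 of 358 higher (28.2%, against 43.2%) and 5 lower (1.40%, against 0.827%). Over the 1060 members the sense strand held 89.1% and 92.2% of reads in the hypertonic libraries, against 93.5% and 94.5% in the isotonic ones, a shift in the same direction as over expressed protein-coding genes. Library strandedness moved with the groups, and its part in the antisense values was not tested.

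Antisense change also went with position. Where an active gene ended within 50 kb before the member on the antisense strand, the median antisense log2 fold change was 2.55 (n = 54), and 83.3% had both hypertonic libraries above. It was 0.96 at 50 to 200 kb (n = 36) and 1.10 beyond 200 kb (n = 189). The antisense strand of AC107220.1 (chromosome 4, 141240739 to 141278789, gene on the minus strand) begins 6.04 kb after ZNF330. It measured 9.76 and 4.48 CPM in hypertonic cells, against 0.417 and 0.103 CPM in isotonic cells, a log2 fold change of 4.65 ± 0.93 (adjusted p = 0.00417, edgeR), the smallest p among the antisense entries of members. The antisense strand of AC008915.2, 5.94 kb after GGA2, measured 5.28 and 2.44 CPM in hypertonic cells, against 0 and 0.155 CPM in isotonic cells. SMIM25 had no such gene near, the closest being 609 kb away, and its antisense strand measured 1.18 and 1.22 CPM in hypertonic cells, against 0.0245 and 0 CPM in isotonic cells. These 3 genes were picked by the smallest antisense p. The antisense entries of AC008915.2 and SMIM25 held almost no isotonic reads, and that of AC107220.1 held few. All 3 passed the expression filter through the hypertonic libraries, so their low isotonic level is partly a result of the filter.

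The 2 strands of a member did not always move together. Among 285 members tested on both, 186 were positive on both strands, 64 were positive on the antisense and negative on the sense strand, and the antisense value was the larger in 204. AC004817.3 had 9 and 25 sense reads in hypertonic cells, against 94 and 83 in isotonic cells, while its antisense strand had 125 and 17 reads in hypertonic cells, against 10 and 1 in isotonic cells. Its log2 fold change was -2.26 ± 0.83 on the sense strand (adjusted p = 0.362) and 4.15 on the antisense strand (adjusted p = 0.0142, both edgeR). AC068620.1, on chromosome 4, showed the same split, with -2.14 ± 0.81 on the sense strand and 2.93 on the antisense strand (adjusted p = 0.0459, edgeR). LINC01818 was higher on both, with an antisense log2 fold change of 2.79 (adjusted p = 0.0372, edgeR). The antisense entries of AC004817.3, AC068620.1 and LINC01818 held 1 to 10 reads in each isotonic library. They too passed the expression filter through the hypertonic libraries.

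**Figure D5:**
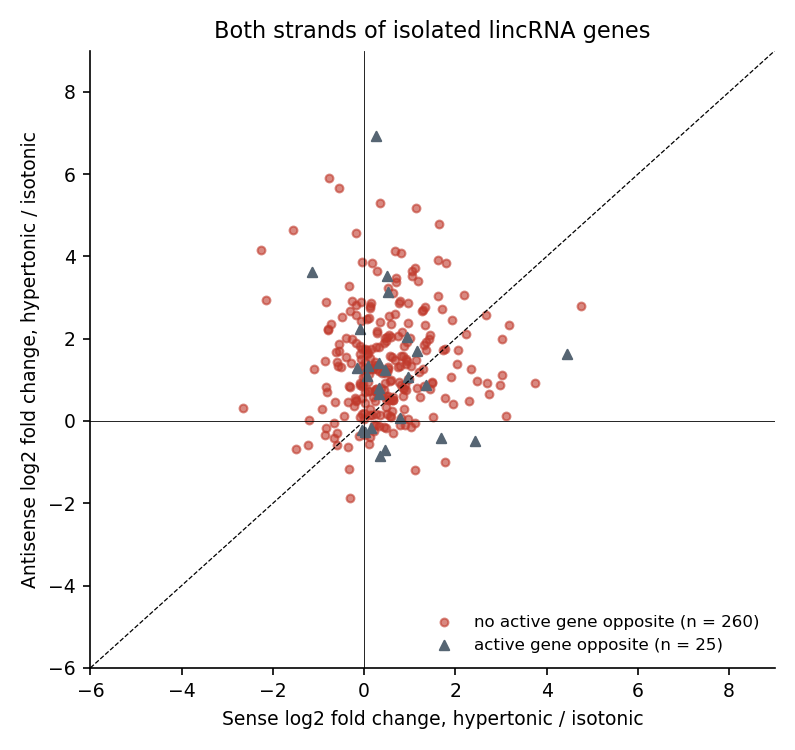
Antisense against sense log2 fold change, hypertonic over isotonic, for the 285 isolated lincRNA genes tested on both strands, with those overlapping an active gene on the opposite strand as grey triangles and equality as a dashed line. Antisense values exceed sense values in 204 of the 285 genes, and 64 lie to the left of 0 and above 0, lower on the sense and higher on the antisense strand.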

How the data were processed

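Reads had been processed with bedtools 2.16.2, STAR 2.5.3a, Bowtie2 2.3.3 and CASAVA 1.8.2 on GRCh38 (hg38), per the submitters' processing notes, whose roles are not stated. The authors deposited, per gene and strand, an expected count of reads and an RPKM value, units inferred from the values because no header names them. Bases shared with another same-strand gene are left out of an entry. The shared-region entries that pool them held 3.11 to 3.48% of counts and were not used. Gene types came from GENCODE 29, which matched 57429 genes. Overlap and distance used the outer span of the deposited entry and the annotation, and coordinates count from 1. Only genes with a sense entry were searched for overlap, so a gene without one can lie inside a member. Which samples received actinomycin D, added to keep strand information, is not given.

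Expected counts were rounded, and sense counts of all genes went into edgeR 4.0.16 under R 4.3.3 (TMM factors, default expression filter, quasi-likelihood test, Benjamini-Hochberg adjustment, threshold 0.05). Antisense entries were tested separately with the sense library sizes. The SE was taken as the size of the log2 fold change over the root of F, and CPM used TMM-scaled library sizes. DESeq2 1.42.0 and limma-voom (limma 3.58.1) were alternatives. On data simulated from the sense table the edgeR step was run with known changes. The simulated spread was capped and the changes were placed in better-covered genes only. That run therefore does not show how the step performs on faint members or at the spread of these libraries. Replicate numbers were not used as pairs in the main fit, and same-numbered deviations correlated at 0.0247. That value cannot show whether same-numbered libraries were handled together, and their origin is not given.

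Named genes are all members past the threshold, the 8 smallest p in each direction, the 8 highest mean RPKM and members of a list of well-studied lncRNAs, plus the genes nearest the count floor and the 50 kb limit on either side; others are said to be chosen after their values were seen. The members and lists were chosen with earlier results of these data known.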

Additional observations from a re-analysis of the deposited data

How the results depend on the processing

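The median log2 fold change of isolated lincRNA genes was positive under every alternative run. It was 0.65 with total-count scaling, 0.62 with the upper quartile, 0.34 with limma-voom, 0.32 with a count floor of 30 and, both chosen after seeing the data, 0.36 with a floor of 10 in each group and 0.15 with a floor of 100. Relative to the median of all genes it was 0.38 to 0.40 under the scalings, DESeq2 and limma-voom, 0.23 without the expression filter, and 0.31 to 0.49 when a library was left out. With the replicate number as a block it was 0.35, and 16 members were called, all higher (1.55%, against 1.79% of all genes). Whether same-numbered samples share more than a number is not given. DESeq2 called 37 and edgeR without the expression filter 39, against 0. The number of members with both hypertonic libraries above was 175 and 68 with count floors of 30 and 100, which hold fewer genes. Matching shares of all genes are not given, so these counts show no change in share. The median of isolated protein-coding genes turned to 0.075 with total count and 0.037 with the upper quartile. Of the antisense entries of members, limma-voom called 18 of 301 higher (5.98%), against 1034 of all 9827 antisense entries tested. Count floors of 30 and 100 left 34 and 17 called, among fewer genes and without matching shares of all entries.

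Leaving out each library in turn gave medians of 0.39 to 0.61 for isolated lincRNA genes, 0.59 to 1.31 for near lincRNA genes, -0.41 to -0.15 for isolated protein-coding genes and 1.16 to 1.44 for antisense entries, and isolated minus near medians of -0.87 to -0.20. Calls ranged from 0 to 153 on the sense and 0 to 106 on the antisense strand, both highest without hypertonic replicate 2, and 464 to 597 members had the hypertonic values above. The lone library of a group is then assumed to vary like the other group. Fewer library pairs also have to differ in the same direction than for the 323 members of the main fit. The counts of 464 to 597 therefore show no rise over 323. Of the 1087 to 1130 members tested in these runs, 157 to 285 had the hypertonic values below. Shares of all genes under this looser rule are not given.

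Of the named genes, the direction reversed for Z93241.1 with limma-voom (-1.28) and the replicate block (-1.19), and for CRNDE with the upper quartile (0.020). Leaving out a library also reversed Z93241.1 (-3.62 to 1.09), NEAT1 (-1.65 to 0.21), AL161431.1 (-1.11 to 0.94), AL590004.3 (-1.27 to 0.026), CRNDE (-0.76 to 0.20), UCA1 (-0.51 to 1.16), LINC01116 (-2.82 to 0.34) and PURPL (-0.22 to 0.37). It kept the sign but moved by over 1.5 times for MALAT1 (0.085 to 0.81), MIR22HG (-1.90 to -0.77), LINC01186 (-2.13 to -0.67), NORAD (-0.67 to -0.23), AL139089.1 (-4.01 to -1.51), AC011453.1 (-2.61 to -1.34) and LINC00461 (2.51 to 5.10). The causes were not tested.

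The median member had 37.2 reads per library on average, and values of single members carry that counting error beside the spread between libraries.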
